A study of Mus musculus with 8 samples.

Results

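The 9 genes described here encode ligands of the transforming growth factor beta (TGF-beta) and activin branch, their receptors and 1 secreted antagonist: Tgfb1, Tgfb2, Tgfb3, Inhba, Inhbb, Tgfbr1, Tgfbr2, Tgfbr3 and Fst. They were chosen by symbol from the 20276 genes listed over 8 single-cell count tables of mouse colon tumours, and all 9 were listed on all 8 plates. Each plate held 384 sorted wells and is 1 numbered replicate. In the study, 4 mice per genotype carried tumours grown from engineered mouse colon tumour organoids placed under the muscle layer of the cecum. FibCtrl mice lacked the Cre-ERT2 transgene and FibΔZeb1 mice carried it. All had tamoxifen diet and, by the study's design, a conditional Zeb1 allele. The transgene is named as Col1a1-driven in the sample labels and as Col1a2-driven in the study's methods, and ages are not given in the sources used here. Each genotype had 4 plates, of which replicates 1 and 2 shared 1 sequencing flow cell and replicates 3 and 4 the other.

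TGF-beta ligands are secreted in a latent form, held in the matrix by latent TGF-beta binding proteins, and signal after release through the kinases TGFBR2 and TGFBR1. TGFBR3, or betaglycan, is a co-receptor that presents ligand, and above all TGF-beta 2, to the signalling receptors. Activins are dimers of inhibin beta chains, encoded by Inhba and Inhbb, that signal through activin receptors to the same SMAD2 and SMAD3 proteins, and follistatin, encoded by Fst, binds and blocks them. In colon tumours the epithelium often becomes insensitive to TGF-beta while stromal cells respond, and fibroblasts respond with matrix production and contractile gene expression. Stromal TGF-beta signalling is a recognised feature of aggressive colorectal cancer.

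Wells were sorted as EPCAM+, CD45+ or negative for EPCAM, CD45 and CD31, and cell classes were set here from marker genes, with no use of the gate. Of 3072 wells, 1831 passed the quality limits and 1394 of these fell into a class. The 6 classes compared held 1219 wells, namely 378 epithelial, 234 neutrophil, 165 fibroblast, 164 macrophage, 139 T cell and 139 B cell wells. The plates held 981881 to 5905188 cell transcripts, and the shallowest, FibCtrl replicate 2, had a median of 221 transcripts per well and 28.2% of its counts in spike-in RNA. That plate entered only the epithelial and neutrophil sums, since a class was summed on a plate only with at least 10 wells. No 2 of the 2933 wells compared across the 8 plates held identical counts. The classes were assigned by a rule that used the marker lists themselves, so the following counts describe the classes and are no separate check of their names. Of the 14 fibroblast markers the median well detected 13 in fibroblast wells, 8 in epithelial and 6 in macrophage wells, and of the 13 macrophage markers 9 in macrophage and 2 in fibroblast wells.

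Levels are given as CPM, the UMI counts of a gene per 1e6 cell transcripts, spike-in and mitochondrial transcripts left out, on the sum of a class's wells on a plate. The assay counts 1 tag near the 3′ end of each transcript and no length correction was applied, so levels were compared for 1 gene across classes and not between genes. Fold changes are log2 values ± SE from an edgeR quasi-likelihood test with Benjamini-Hochberg adjustment over all genes tested, called at an adjusted p under 0.05. Across the 15 pairs of the 6 classes, 61 of 120 tests of these genes were called, against 34.6% of all gene tests over the same pairs. Tgfb1 did not pass the filter on low counts in this fit, so 8 of the 9 genes were tested.

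Short windows before the start sites are shown for Tgfbr1 and Tgfb2, whose promoters hold the core CAGAC, the 5 bases bound by SMAD proteins, since SMADs carry the signal of this pathway. RefSeq promoter windows (GRCm38.p6, from 250 bases before to 50 after a start) were matched for 6 of the 9 genes in 7 windows, and none was matched for Tgfb3, Tgfbr3 and Fst. The capitals mark CAGAC, searched as CAGAC and GTCTG on both strands. For Tgfbr1 the window lay before the second annotated start at chr4:47386001-47386030 on the plus strand. Tgfb2 held overlapping windows on the minus strand at chr1:186706193-186706222 and chr1:186706176-186706205.
Tgfbr1: tttcgaactcagCAGACagccccacggtcc
Tgfb2, distal: cccctccacacaCAGACccttggtgatcac
Tgfb2, proximal: ccttggtgatcaCAGACagtgactactgca
The 3 printed stretches lie in 2 windows, and 49.6% of all 32851 promoter windows of the same length hold the core. The E2-box, CAGGTG or CACCTG, the site that ZEB1 binds, was found in 0 of the 7 windows and in 20.2% of all windows. These are matches of letters in 1 window per start and nothing more.

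Among the receptors, Tgfbr2 and Tgfbr3 were highest in fibroblast wells and Tgfbr1 was highest in macrophage wells. Tgfbr2 (chr9:116084293-116175360), the type II kinase that binds TGF-beta first, stood in fibroblast wells at 882 and 1582 CPM on FibCtrl replicates 1 and 4 and at 423, 1179 and 554 CPM on FibΔZeb1 replicates 1, 3 and 4, a mean of 924 ± 471 CPM (SD, n = 5 plates). Even the lowest of these plates lay above the highest plate of every other compared class. The B cell, T cell and macrophage means were 244 ± 61.3 (SD, n = 3), 216 ± 89.8 (SD, n = 6) and 180 ± 55.8 CPM (SD, n = 6). Epithelial wells had the lowest mean, 60.7 ± 20.3 CPM (SD, n = 8), with plates from 25.6 to 85.2 CPM. Against epithelial wells Tgfbr2 was higher in fibroblast wells by 4.18 ± 0.32 (edgeR adjusted p = 1.19e-14), and against macrophage wells by 2.48 ± 0.33 (edgeR adjusted p = 2.68e-08). Macrophage wells in turn exceeded epithelial wells, with an epithelial minus macrophage difference of -1.70 ± 0.30 (edgeR adjusted p = 9.33e-06). The B cell, T cell and macrophage levels, neighbours in this order, did not differ beyond their spread.

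Tgfbr3 (chr5:107106570-107289629), the co-receptor, was at 277 and 568 CPM in fibroblast wells of FibCtrl replicates 1 and 4 and at 141, 306 and 398 CPM on FibΔZeb1 replicates 1, 3 and 4 (337.8 ± 158 CPM, SD, n = 5). T cell wells came next with a mean of 37.7 ± 21.0 CPM (SD, n = 6), and the groups did not overlap. Epithelial wells had 7.38 ± 4.40 CPM (SD, n = 8) and macrophage wells 9.34 ± 7.41 CPM (SD, n = 6). The difference was 5.74 ± 0.32 against epithelial wells (edgeR adjusted p = 1.50e-18), 5.56 ± 0.41 against macrophage wells (edgeR adjusted p = 8.28e-15) and 3.93 ± 0.42 against T cell wells (edgeR adjusted p = 3.02e-10). Pooled over wells, the epithelial and macrophage levels of Tgfbr3 were 2.62% and 2.18% of the fibroblast level. For Col1a1, a collagen gene that these cells should lack, the same percentages were 1.32% and 2.23%, and the source of these transcripts was not tested.

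Tgfbr1 (chr4:47353222-47414931), the type I kinase, had the opposite order of macrophage and fibroblast wells. Macrophage wells ranged from 121 to 385.3 CPM with a mean of 247 ± 112 CPM (SD, n = 6), and fibroblast wells from 60.6 to 172 CPM with a mean of 108 ± 42.1 CPM (SD, n = 5), so the plates overlapped. Neutrophil wells had 112 ± 83.9 CPM (SD, n = 7), B cell wells 112 ± 41.8 CPM (SD, n = 3) and T cell wells 77.9 ± 35.6 CPM (SD, n = 6). Epithelial wells were lowest with 37.7 ± 8.21 CPM (SD, n = 8), and their highest plate, at 47.2 CPM, lay below the lowest fibroblast plate. With the plate as a block, the fibroblast minus macrophage difference was -1.03 ± 0.27 (edgeR adjusted p = 0.00204), the fibroblast minus epithelial difference 1.69 ± 0.26 (edgeR adjusted p = 8.50e-07) and the epithelial minus macrophage difference -2.72 ± 0.26 (edgeR adjusted p = 4.79e-12). The macrophage minus neutrophil difference was 0.79 ± 0.30 (edgeR adjusted p = 0.0450), and the neutrophil, B cell, fibroblast and T cell levels did not differ between neighbours.

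**Figure D1:**
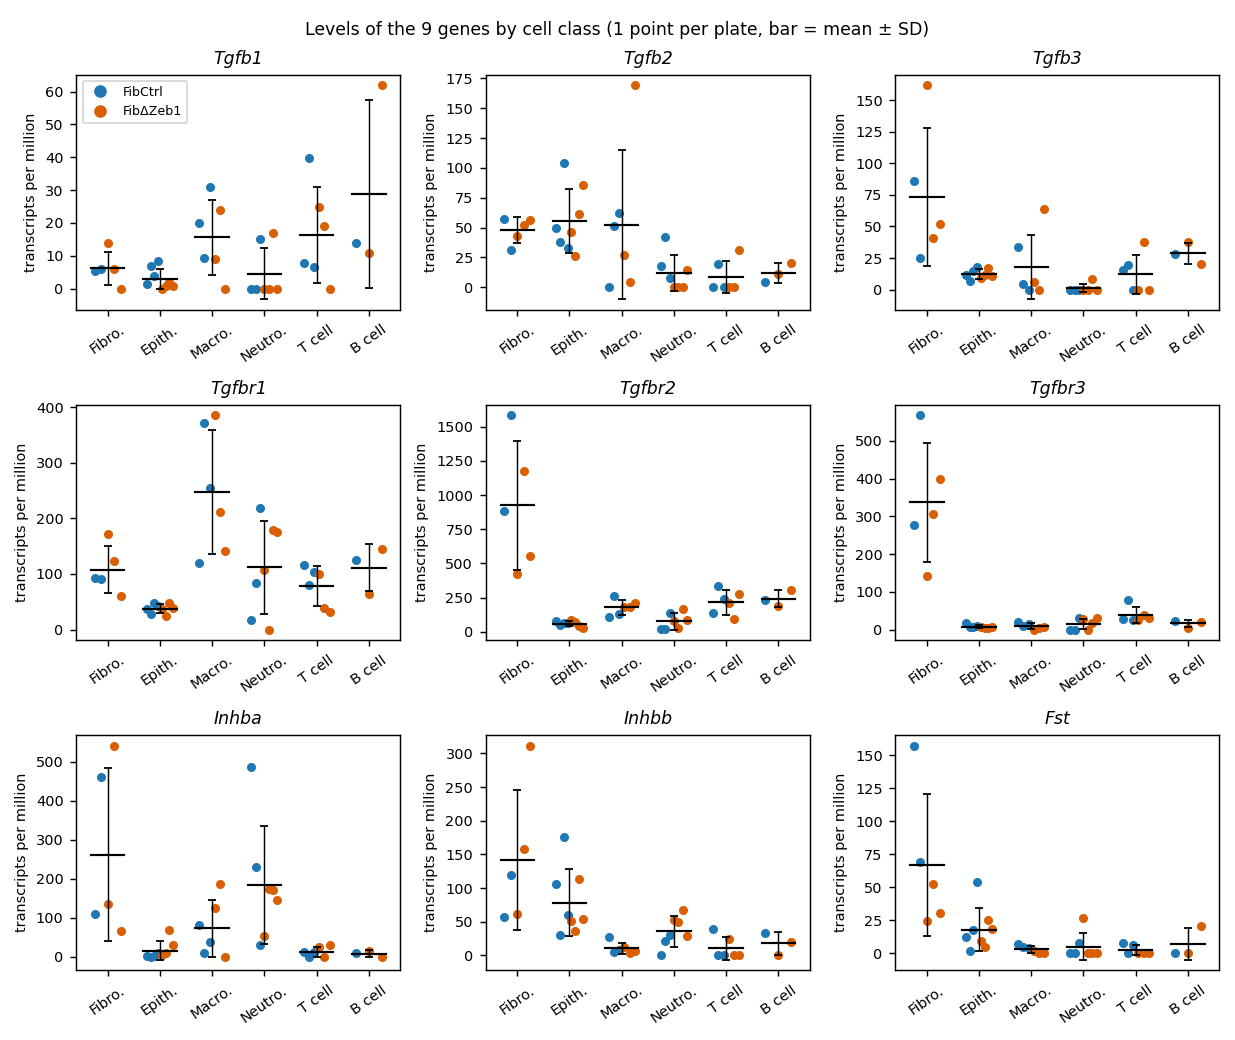
Levels of the 9 genes (y axis, CPM) in 6 cell classes (x axis), with 1 point per plate coloured by genotype, the bar at the mean and whiskers of 1 SD. Among plates with at least 10 wells of a class, every fibroblast plate stands above all other plates for Tgfbr2 and Tgfbr3. The highest mean of Tgfbr1 is in macrophage wells.

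Among the ligands, Tgfb1, the isoform made by many blood and stromal cells, was too sparse for a test. It had 157 transcripts over all wells of the 8 plates, and its mean level was between 2.98 CPM in epithelial wells and 28.9 CPM in B cell wells, where 3 plates held 8 transcripts together. Fibroblast wells held 20 Tgfb1 transcripts on 5 plates (6.16 ± 4.92 CPM, SD) and macrophage wells 25 on 6 plates (15.6 ± 11.4 CPM, SD), with plates at 0 in both classes. Pooled over wells, the level was 2.65 CPM in epithelial wells (95% Poisson interval 1.83 to 3.72), 6.87 CPM in fibroblast wells (4.30 to 10.4) and 14.6 CPM in macrophage wells (9.46 to 21.6). The epithelial interval lay below those of fibroblast and macrophage wells, which overlapped. These intervals cover counting error only, and no class difference of Tgfb1 was tested.

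Tgfb2 (chr1:186622792-186705989) was found in tumour epithelium, macrophages and fibroblasts, and no difference between these classes was called. Epithelial wells had 49.8, 37.9, 104 and 33.1 CPM on FibCtrl replicates 1 to 4 and 46.7, 26.04, 61.4 and 85.5 CPM on FibΔZeb1 replicates 1 to 4 (55.6 ± 27.0 CPM, SD, n = 8). Fibroblast wells had 48.0 ± 11.1 CPM (SD, n = 5) and macrophage wells 52.3 ± 62.4 CPM (SD, n = 6), the latter from 0 to 169 CPM. The fibroblast minus epithelial difference was 0.33 ± 0.36 (edgeR adjusted p = 0.492), the fibroblast minus macrophage difference 0.50 ± 0.42 (edgeR adjusted p = 0.392) and the epithelial minus macrophage difference 0.17 ± 0.37 (edgeR adjusted p = 0.736). The macrophage level came from few wells, since 11 of 164 macrophage wells (6.71%) held any Tgfb2 transcript, against 43.1% of epithelial and 33.3% of fibroblast wells. These shares also follow depth, with medians of 8840, 25143 and 11582 transcripts per well in the same order. With wells thinned to 1000 transcripts the shares were 4.52%, 5.99% and 3.94%. Without the highest well of the plate, macrophage Tgfb2 on FibΔZeb1 replicate 4 was 33.0 CPM, on FibCtrl replicate 4 it was 0 CPM and on FibΔZeb1 replicate 1 it was 6.19 CPM. Tgfb2 was the gene that was called in neither comparison of the fibroblasts. B cell, neutrophil and T cell wells held 4, 5 and 2 Tgfb2 transcripts, and fibroblast wells exceeded B cell wells by 2.67 ± 0.83 (edgeR adjusted p = 0.0101).

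Tgfb3 (chr12:86056745-86079041), the isoform linked to mesenchyme, was highest in fibroblast wells, with 86.2 and 25 CPM on FibCtrl replicates 1 and 4 and 162, 40.9 and 51.9 CPM on FibΔZeb1 replicates 1, 3 and 4 (73.1 ± 54.4 CPM, SD, n = 5). Epithelial wells had 12.4 ± 3.83 CPM (SD, n = 8), and no epithelial plate, at most 17.7 CPM, reached the lowest fibroblast plate. On FibΔZeb1 replicate 4, however, all 12.02 fibroblast transcripts of Tgfb3 lay in 1 of 16 wells, and on FibΔZeb1 replicate 3, 13.02 of 21.02 lay in 1 of 13 wells. Without these wells both plates, at 0 and 16.1 CPM, fell below the highest epithelial plate. The difference over all wells was 2.71 ± 0.46 (edgeR adjusted p = 4.94e-06). Macrophage wells had 17.9 ± 25.6 CPM (SD, n = 6) and reached 63.5 CPM on 1 plate, with 47.4% of the class's Tgfb3 transcripts in 1 well. Against them the fibroblast difference was 2.57 ± 0.58 (edgeR adjusted p = 0.000326). Without FibΔZeb1 replicate 1, the plate with the highest fibroblast level, the differences from epithelial and macrophage wells were 2.08 (edgeR adjusted p = 0.00128) and 1.76 (edgeR adjusted p = 0.0303), and without FibΔZeb1 replicate 4 the latter was 3.57 (edgeR adjusted p = 1.76e-05).

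Inhba (chr13:16011851-16031621), which encodes the chain of activin A, was found in fibroblasts, neutrophils and macrophages and was scarce in epithelium. Fibroblast wells had 110 and 460 CPM on FibCtrl replicates 1 and 4 and 134, 541 and 64.9 CPM on FibΔZeb1 replicates 1, 3 and 4 (262 ± 221 CPM, SD, n = 5). Neutrophil wells had 184 ± 150 CPM (SD, n = 7), from 30.2 to 486 CPM, and macrophage wells 73.3 ± 72.6 CPM (SD, n = 6), from 0 to 188 CPM. These classes overlapped, and neighbours in the order did not pass the test (fibroblast minus neutrophil 0.77 ± 0.67, edgeR adjusted p = 0.352). Epithelial wells had 15.9 ± 23.4 CPM (SD, n = 8), lower than fibroblast wells by 4.49 ± 0.54 on the log2 scale (edgeR adjusted p = 3.42e-09). They were also lower than macrophage wells, at -2.81 ± 0.58 (edgeR adjusted p = 8.75e-05), and lower than neutrophil wells, at -3.72 ± 0.64 (edgeR adjusted p = 6.23e-06).

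The Inhba transcripts of a plate came from few wells. On FibCtrl replicate 4, 1 of 43 fibroblast wells held 286.78 of 312.82 Inhba transcripts, and the level without that well was 41.1 CPM. On FibΔZeb1 replicate 3, 1 of 13 wells held 209.23 of 278.43 transcripts, and the level without it was 142 CPM. In neutrophil wells of FibCtrl replicate 2, 26.08 of 27.08 transcripts lay in 1 of 24 wells. Over all 165 fibroblast wells, 49 held any Inhba transcript. The fibroblast minus macrophage difference of 1.68 ± 0.57 (edgeR adjusted p = 0.0157) did not pass the test without FibCtrl replicate 4 (1.08, edgeR adjusted p = 0.145) and was 2.33 without FibΔZeb1 replicate 1 (edgeR adjusted p = 0.00450). The Inhba differences of fibroblast and macrophage wells from epithelial wells stayed called without any 1 plate, within 3.89 to 5.10 for fibroblast minus epithelial (lowest without FibCtrl replicate 4 and highest without FibΔZeb1 replicate 4). For epithelial minus macrophage the values lay within -3.40 to -2.10, at the ends without FibΔZeb1 replicates 4 and 1.

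Inhbb (chr1:119415465-119422248), the chain of activin B, had another pattern than Inhba, with the tumour epithelium close behind the fibroblasts and far above the macrophages. Fibroblast wells had 57.4 and 119 CPM on FibCtrl replicates 1 and 4 and 61.9, 158 and 311 CPM on FibΔZeb1 replicates 1, 3 and 4 (142 ± 104 CPM, SD, n = 5). On FibΔZeb1 replicate 4, 52.33 of 72.36 fibroblast transcripts lay in 1 of 16 wells, and on FibΔZeb1 replicate 1, 26.08 of 36.08 lay in 1 of 24 wells. The levels without these wells were 97.9 and 19.0 CPM. Epithelial wells had 106, 31.0, 175 and 60.2 CPM on FibCtrl replicates 1 to 4 and 50.4, 36.6, 113 and 53.4 CPM on FibΔZeb1 replicates 1 to 4 (78.2 ± 49.5 CPM, SD, n = 8). These classes overlapped, and the difference of 1.07 ± 0.36 was called (edgeR adjusted p = 0.0147) but not without FibCtrl replicate 4 (0.96, edgeR adjusted p = 0.0635) or FibΔZeb1 replicate 4 (0.51, edgeR adjusted p = 0.314), nor with library size alone as the scaling (0.62, edgeR adjusted p = 0.136). Macrophage wells had 10.4 ± 8.53 CPM (SD, n = 6), below every epithelial and fibroblast plate over all wells. The fibroblast minus macrophage difference was 3.78 ± 0.50 (edgeR adjusted p = 3.94e-08) and the epithelial minus macrophage difference 2.71 ± 0.49 (edgeR adjusted p = 1.07e-05). Inhba and Inhbb therefore differed in opposite directions between epithelial and macrophage wells.

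Fst (chr13:114452290-114458951), the activin antagonist follistatin, was highest in fibroblast wells, with 157 and 69.1 CPM on FibCtrl replicates 1 and 4 and 24.1, 52.5 and 30.3 CPM on FibΔZeb1 replicates 1, 3 and 4 (66.7 ± 53.8 CPM, SD, n = 5). Epithelial wells followed at 17.8 ± 16.4 CPM (SD, n = 8), where plates ranged from 1.72 to 53.7 CPM and overlapped the fibroblast plates. On FibCtrl replicate 4, the highest epithelial plate, 44.23 of 91.27 transcripts lay in 1 of 47 wells, and the level without it was 28.8 CPM. Macrophage wells held 4 Fst transcripts in all (2.79 ± 2.73 CPM, SD, n = 6). The fibroblast minus epithelial difference was 1.87 ± 0.40 (edgeR adjusted p = 0.000144), and 1.25 without FibCtrl replicate 1 (edgeR adjusted p = 0.0222). The fibroblast minus macrophage difference was 4.52 ± 0.61 (edgeR adjusted p = 5.81e-08) and the epithelial minus macrophage difference 2.66 ± 0.65 (edgeR adjusted p = 0.000683). The pooled macrophage level was 2.50% of the fibroblast level, beside 2.23% for Col1a1.

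In counts, 7 of the 8 tested genes differed between fibroblast and epithelial wells, all higher in fibroblasts, where 42.6% of all 8062 genes were called and 21.7% were called higher in fibroblasts. Between fibroblast and macrophage wells 7 of 8 were called, 6 higher in fibroblasts and Tgfbr1 higher in macrophages, where 37.4% of all genes were called, with 18.2% of all genes higher in fibroblasts and 19.1% higher in macrophages. Between epithelial and macrophage wells 5 of 8 were called, Fst and Inhbb higher in epithelium and Inhba, Tgfbr1 and Tgfbr2 higher in macrophages, where 46.7% of all genes were called, 22.5% higher in epithelium and 24.1% higher in macrophages. Scaling by library size alone moved the median of all genes by -0.43, -0.11 and 0.32 in these 3 comparisons. With it the share of called genes that were higher in the first class went from 50.9% to 27.7%, from 48.8% to 43.2% and from 48.3% to 65.5%. The called directions of these genes were the same with both scalings.

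**Figure D2:**
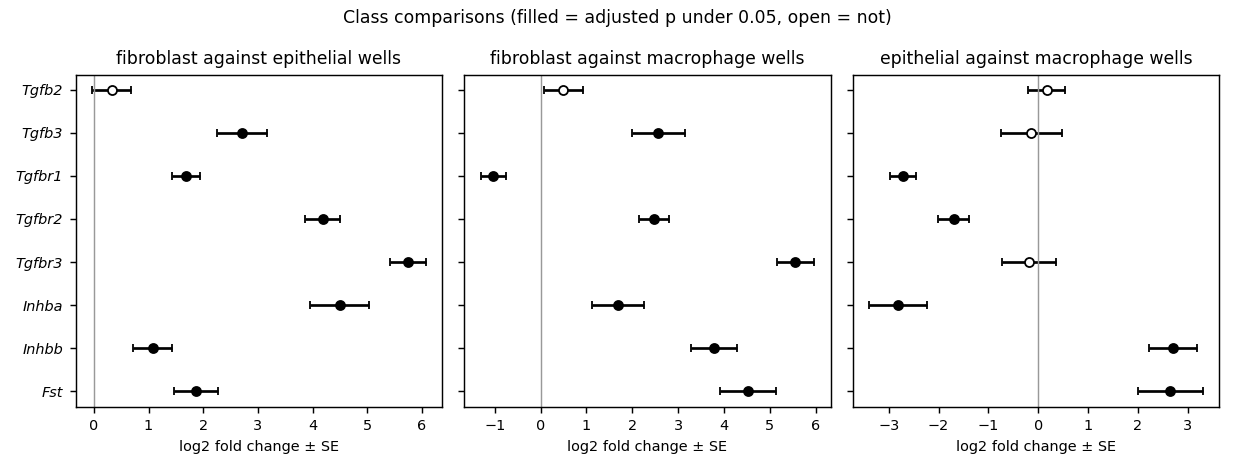
Log2 fold change ± SE (x axis) of the 8 tested genes (y axis) in 3 class comparisons by edgeR, filled where the adjusted p was under 0.05. Tgfbr3 stands farthest to the fibroblast side in both fibroblast comparisons, at 5.74 and 5.56, and Tgfbr1 lies on the macrophage side in both comparisons with macrophages.

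The other genes of the pathway were grouped into 5 lists. Their counts stand beside the shares over all genes. In fibroblast against epithelial wells 21.7% of all genes were called higher and 20.9% lower. Against macrophage wells the fibroblast shares were 18.2% higher and 19.1% lower, and the epithelial shares 22.5% higher and 24.1% lower. Of 12 genes that hold TGF-beta latent or release it, 10 were tested and 8 were higher in fibroblast than in epithelial wells, with none lower. The median difference of the list was 2.39, beside -0.09 over all genes. Fbn1, the fibrillin that anchors the latent complex, averaged 2282 CPM in fibroblast wells and 13.1 CPM in epithelial wells (difference 7.55 ± 0.39, edgeR adjusted p = 1.27e-19). Thbs1, thrombospondin 1, which can release TGF-beta, averaged 972 CPM in fibroblast, 725 CPM in macrophage and 307 CPM in epithelial wells. It was higher in fibroblast than epithelial wells by 2.103 ± 0.38 (edgeR adjusted p = 1.34e-05), and its difference from macrophage wells was 0.57 ± 0.42 (edgeR adjusted p = 0.321). Furin, the protease that cleaves the precursor, was higher in macrophage than fibroblast wells, at 308 against 115 CPM (fibroblast minus macrophage -1.25 ± 0.32, edgeR adjusted p = 0.00149). Against macrophage wells 7 of the 10 genes were higher in fibroblasts and 2 were lower, Furin and Lrrc33, which encodes the protein that tethers latent TGF-beta on myeloid cells (-6.30 ± 0.44, edgeR adjusted p = 2.00e-15).

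Of 10 other ligands and antagonists 2 were tested. Fstl1, a secreted follistatin-like protein, averaged 6261 CPM in fibroblast and 87.5 CPM in epithelial wells (6.48 ± 0.42, edgeR adjusted p = 6.80e-17). Gdf15, a distant member of the ligand family, averaged 51.4 CPM in epithelial and 2.42 CPM in fibroblast wells (-4.00 ± 0.52, edgeR adjusted p = 1.88e-08). Inha, the inhibin alpha chain, averaged 11.1 CPM in fibroblast wells and was not tested. Of 11 other receptors 4 were tested, and Acvr1, Eng and Vasn were higher in fibroblast than epithelial wells while Bambi, a decoy receptor, was lower (-1.62 ± 0.45, edgeR adjusted p = 0.00289). Acvr1, a type I receptor, averaged 113 and 43.0 CPM in fibroblast and epithelial wells (1.74 ± 0.27, edgeR adjusted p = 7.26e-07). Vasn, vasorin, a membrane protein that binds TGF-beta, averaged 140 and 12.8 CPM (4.13 ± 0.32, edgeR adjusted p = 1.59e-14).

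Of 15 genes of signal transduction 12 were tested, and between fibroblast and epithelial wells 3 were higher and 2 lower, with a list median of 0.01. These counts are near the shares of all genes, 21.7% higher and 20.9% lower, and are no trait of the list. Smad4, the shared SMAD partner, averaged 121 CPM in fibroblast, 141 CPM in epithelial and 78.3 CPM in macrophage wells, and its fibroblast minus epithelial difference was 0.23 ± 0.22 (edgeR adjusted p = 0.421). Ski, a repressor of SMAD activity, was higher in fibroblast than epithelial wells by 1.46 ± 0.23 (edgeR adjusted p = 1.29e-06), and Strap, which binds the receptor and inhibitory SMAD7, was lower (-0.62 ± 0.21, edgeR adjusted p = 0.0148).

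Of 14 known target genes 11 were tested, and 7 were higher and 2 lower in fibroblast than epithelial wells (list median 2.57). Fn1, fibronectin, averaged 6415 CPM in fibroblast, 5073 CPM in macrophage and 491 CPM in epithelial wells, and the fibroblast minus epithelial difference was 4.04 ± 0.37 (edgeR adjusted p = 2.21e-12). Pmepa1, a feedback inhibitor, averaged 916, 382 and 258 CPM in the same order (2.57 ± 0.31 against epithelial wells, edgeR adjusted p = 4.53e-09). Bhlhe40 averaged 223, 420 and 264 CPM and was not called between fibroblast and epithelial wells (-0.11 ± 0.27, edgeR adjusted p = 0.786). The 2 that were lower in fibroblasts were Tgif1 and Smad7, the inhibitory SMAD (-0.95 ± 0.25, edgeR adjusted p = 0.00204). Between fibroblast and macrophage wells 4 of the 11 targets were higher in fibroblasts and 4 lower (list median 0.50). Between epithelial and macrophage wells 1 target was higher in epithelium, Smad7, and 7 were lower. Fn1, Postn and Tgfbi also encode matrix proteins.

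Over the 35 sums per class and plate, the genes whose log2 levels followed a member most closely were described by Pearson's r, with sums of 1 plate sharing a library. Tgfbr3 was followed by Has1, Efemp1 and Sfrp4 (r = 0.95 for each). Tgfbr2 was followed by Timp1 (r = 0.83), Rnase4 and Col14a1, and Tgfbr1 by Cdc42 (r = 0.83), Ms4a6d and Dab2. Tgfb2 had the loosest match, with Rnf150 (r = 0.73) and Ltbp1, the latter a latent TGF-beta binding protein. Tgfb3 was followed by Lix1l (r = 0.79), Leprel4 and Pdzrn3, Inhba by Pdlim4 (r = 0.81), Colec12 and Rab34, Inhbb by Tshz2 (r = 0.85), Amotl2 and Smo, and Fst by Zfp651 (r = 0.84), 1810055G02Rik and Fkbp11.

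Within the fibroblasts, Tgfbr2 and Tgfbr3 were lower in contractile than in matrix wells of the same plate. Each fibroblast well was put with the side whose marker list prevailed, contractile genes such as Acta2 and Tagln or matrix genes such as Dpt and Lum, and none of the 9 genes is in either list. Plates FibCtrl replicate 1, FibCtrl replicate 4 and FibΔZeb1 replicate 1 had at least 5 wells of both kinds. Tgfbr2 was at 165, 335 and 280 CPM in contractile wells of these plates and at 1253, 1646 and 901 CPM in their matrix wells. Every matrix value lay above every contractile value. The contractile sum of FibCtrl replicate 4 was shallow, with 9 wells beside 34 matrix wells, and 1 transcript in it stood for 30.5 CPM. Levels of every gene in that sum rest on few transcripts. The contractile minus matrix difference was -2.43 ± 0.36 (edgeR adjusted p = 0.00589). Tgfbr3 was at 34.3, 152 and 71.6 CPM in contractile wells and at 402, 589 and 372 CPM in matrix wells, again without overlap (-2.80 ± 0.40, edgeR adjusted p = 0.00482). Without FibCtrl replicate 4 neither passed the test, at -2.40 (edgeR adjusted p = 0.119) and -3.01 (edgeR adjusted p = 0.0750).

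Tgfb3 went the other way in value, at 150, 121.8 and 190 CPM in contractile wells and 53.3, 20.1 and 67.0 CPM in matrix wells, and missed the threshold (1.59 ± 0.40, edgeR adjusted p = 0.0659), which it passed with library size alone as the scaling (1.70, edgeR adjusted p = 0.0466). Inhba was at 275, 213 and 154 CPM in contractile wells and at 24.2, 473 and 67.0 CPM in matrix wells, and the 473 CPM is the plate with the single Inhba-rich well (1.15 ± 0.74, edgeR adjusted p = 0.667). Tgfbr1, Tgfb2, Inhbb and Fst were not called either (edgeR adjusted p from 0.838 to 0.977). So 2 of the 8 tested genes were called, both lower in contractile wells, where 2.77% of 5771 genes were called with 2.01% lower and 0.762% higher in contractile wells. Of the latency list Fbn1 and Ltbp1, and of the targets Cilp, were lower in contractile wells, and no other gene of the 5 lists was called.

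The contractile wells also held more of the pericyte and smooth muscle list, 637 ± 473 CPM (SD, n = 3 plates) against 264 ± 92.4 CPM (SD, n = 3) in matrix wells, a list that shares Myh11 and Cnn1 with the contractile one. Of its genes, Rgs5 stood at 3.57 CPM in contractile and 0.515 CPM in matrix wells, Cspg4 at 268 and 85.8 CPM and Notch3 at 74.9 and 1.59 CPM. Higd1b of the same list went the other way, at 0 and 2.48 CPM. The Rgs5 and Higd1b values rest on few transcripts. The part of pericytes or smooth muscle cells in the difference was not tested. The fibroblast list itself was at like levels in both, 87441 ± 22144 CPM and 90889 ± 6867 CPM (SD, n = 3 each). It shares Lum and Dcn with the matrix list that split the wells, so these levels are no separate check.

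**Figure D3:**
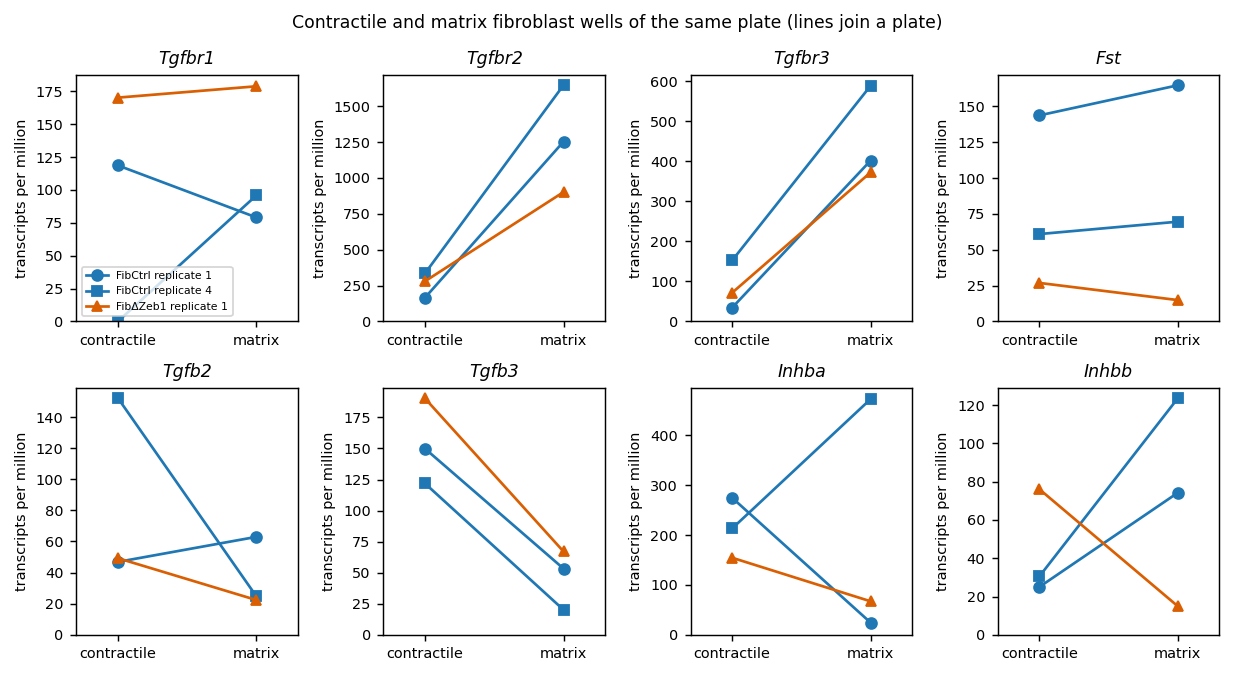
Levels (y axis, CPM) of 8 genes in contractile and matrix fibroblast wells (x axis), with lines joining the sums of 1 plate. Tgfbr2 and Tgfbr3 climb from contractile to matrix wells on all 3 plates, Tgfb3 falls on all 3, and the other genes do not move in 1 direction. The contractile levels of FibCtrl replicate 4 rest on few transcripts.

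The comparison of genotypes asked whether loss of Zeb1 in fibroblasts went with other ligand or receptor levels. Zeb1 itself, in fibroblast wells, was at 98.9 and 82.4 CPM on FibCtrl replicates 1 and 4 and at 46.5, 46.7 and 30.3 CPM on FibΔZeb1 replicates 1, 3 and 4. The groups did not overlap, which 2 against 3 plates can show by order alone, and the difference of -1.13 ± 0.29 was not called (edgeR adjusted p = 0.616). The counted tag lies near the 3′ end, and where the deleted stretch lies relative to it is not given in the sources used here. No member that passed the filter on low counts was called between FibΔZeb1 and FibCtrl in fibroblast, epithelial, macrophage or T cell wells. In fibroblast wells all members but Tgfb1 were tested, and in epithelial wells all but Tgfb1 and Tgfbr3. Only Inhba, Tgfb2, Tgfbr1 and Tgfbr2 were tested in macrophage wells and only Tgfbr2 in T cell wells. In neutrophil wells no member passed the filter, so that class gives no answer for these genes. Over all genes, edgeR called 1 of 7860 in fibroblast wells (0.0127%), 0 of 10149 in epithelial wells (0%), 0 of 4130 in macrophage wells (0%), 1 of 1018 in neutrophil wells (0.0982%) and 0 of 1296 in T cell wells (0%). At an unadjusted p under 0.05 edgeR had 465, 164, 152, 40 and 38 genes, and DESeq2 called 31, 0, 2, 1 and 2.

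In fibroblast wells, only Fst had groups that did not overlap, with FibCtrl at 157 and 69.1 CPM (113 ± 62.4 CPM, SD, n = 2) and FibΔZeb1 at 24.1, 52.5 and 30.3 CPM (35.6 ± 14.96 CPM, SD, n = 3). The difference was -1.69 ± 0.46, which did not pass the adjustment (edgeR adjusted p = 0.666). With 2 against 3 plates, groups can separate by order alone. The share of all 7860 genes that separated in this way is not given here, so the separation of Fst is a description and not a result. On flow cell 1 the plates stood at 157 and 24.1 CPM, and on flow cell 2 at 69.1 against 52.5 and 30.3 CPM. Without FibCtrl replicate 1 the difference was -0.96. With no filter on low counts Fst was called (-1.71, edgeR adjusted p = 0.000894), a setting in which edgeR called 298 genes in fibroblast wells. In matrix wells alone, a comparison added after the values were seen, it was -1.63 ± 0.51 (edgeR adjusted p = 0.693).

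The receptor Tgfbr2 averaged 1232 ± 495 CPM on 2 FibCtrl plates and 719 ± 404 CPM on 3 FibΔZeb1 plates (SD), with overlap (-0.81 ± 0.47, edgeR adjusted p = 0.950). Tgfbr3 averaged 422 ± 206 and 282 ± 130 CPM (-0.61 ± 0.49, edgeR adjusted p = 0.975). The share of contractile wells, in which both were lower, was 31.5% and 20.9% on FibCtrl replicates 1 and 4 and 79.2%, 30.8% and 12.5% on FibΔZeb1 replicates 1, 3 and 4. In the same order of plates Tgfbr2 was at 882, 1582, 423, 1179 and 554 CPM and Tgfbr3 at 277, 568, 141, 306 and 398 CPM. The relation of these levels to the share was not tested. In matrix wells alone the differences were -0.64 ± 0.40 and -0.41 ± 0.32 (edgeR adjusted p = 0.997 and 0.999). Tgfb2, Tgfb3, Tgfbr1, Inhba and Inhbb differed by 0.13, 0.60, 0.37, -0.22 and 0.95 in fibroblast wells, with overlapping plates and edgeR adjusted p from 0.972 to 0.999.

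In epithelial wells the largest difference was that of Inhba, at 3.20, 0, 1.5 and 9.45 CPM on FibCtrl replicates 1 to 4 and 3.70, 9.85, 68.3 and 31.4 CPM on FibΔZeb1 replicates 1 to 4 (2.79 ± 0.91, edgeR adjusted p = 0.9997). The groups overlapped, since FibΔZeb1 replicate 1 lay below FibCtrl replicate 4. On FibΔZeb1 replicate 3, 82.82 of 128.92 transcripts lay in 1 of 59 wells, and on FibΔZeb1 replicate 4, 26.08 of 43.09 in 1 of 48 wells. The levels without these wells were 25.1 and 12.8 CPM. The difference of the genotype effects on Inhba between fibroblast and epithelial wells was -2.97 ± 1.39 (edgeR adjusted p = 0.99999), and no gene of 11239 was called in this test for any of the 3 class pairs. In macrophage wells Inhba averaged 42.8 ± 35.7 CPM on FibCtrl and 104 ± 95.4 CPM on FibΔZeb1 plates (SD, n = 3 each; 1.47 ± 0.85, edgeR adjusted p = 0.997), while Tgfbr1 averaged 249 ± 125 and 246 ± 126 CPM (0.02 ± 0.44, edgeR adjusted p = 0.997). None of the genes of the 5 pathway lists that passed the filter was called by genotype in any of the 5 classes, and few passed it in neutrophil and T cell wells.

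**Figure D4:**
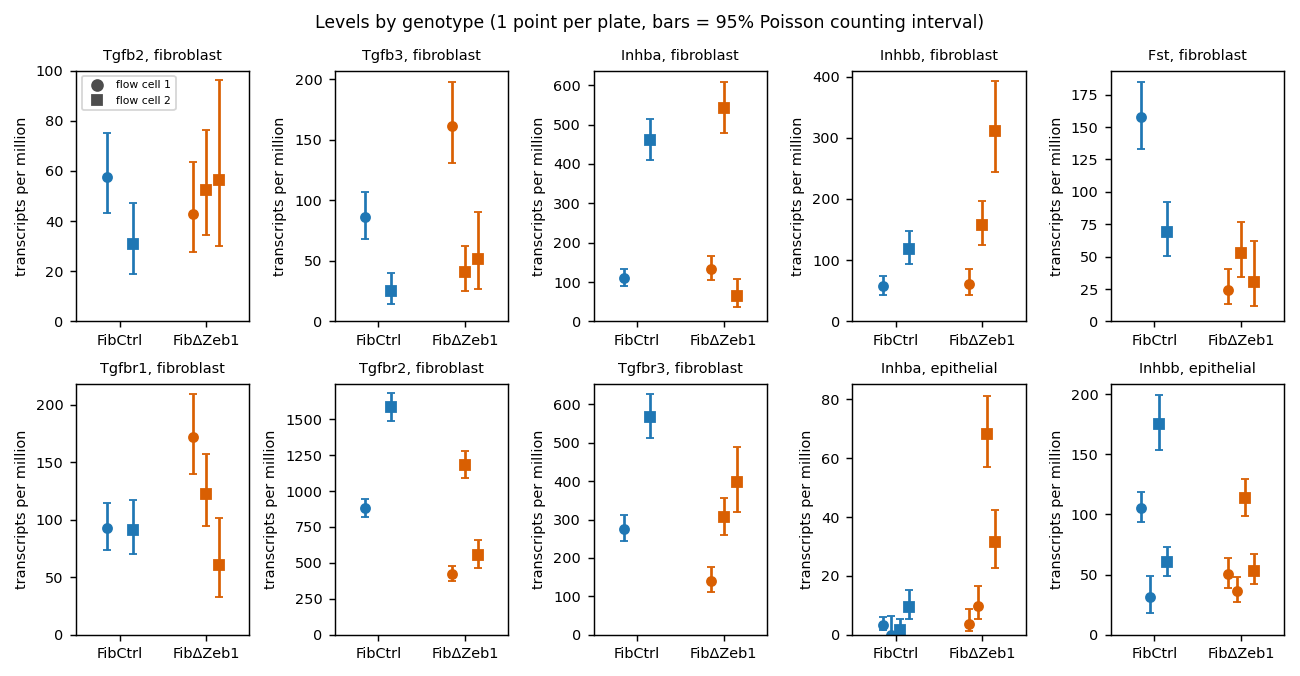
Levels (y axis, CPM) by genotype (x axis), with 1 point per plate, marker shape for the flow cell and bars for the 95% Poisson interval, which covers counting error only. Fst in fibroblast wells is the only panel with separate groups, which 2 against 3 plates can show by order alone, and it was not called. Epithelial Inhba is high on 2 of 4 FibΔZeb1 plates.

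Some classes with too few wells per plate for a test held high levels of the ligands. Pooled over plates, 40 pericyte and smooth muscle wells had 457 CPM Inhba (95% Poisson interval 408 to 510), 157 CPM Tgfb3 (129 to 189) and 132 CPM Tgfb2 (107 to 162). The pooled fibroblast levels were 270, 78.4 and 57.8 CPM. Most of these 40 wells lay on FibCtrl replicate 1 (12 wells) and FibΔZeb1 replicate 1 (19 wells). Their Col1a1 stood there at 15619 and 8298 CPM, beside 17687 and 20027 CPM in fibroblast wells. The name of the class is thus uncertain, and whether it holds contractile fibroblasts was not tested. In 9 wells named endothelial, a class that the sort was meant to leave out, Tgfb2 was at 607 CPM (525 to 699). Of its 193 transcripts, in 8 wells, 92.01 lay in 1 well. The level without that well was 458 CPM. The name of these wells is uncertain, as 4 of the 9 lay near the limits of the marker rule. Cdh5, an endothelial marker, had 1 transcript on FibCtrl replicate 2, 16 on FibΔZeb1 replicate 2 and 0 on the other plates with such wells. Epcam stood at 1168 CPM in the FibΔZeb1 replicate 4 well. The receptors were also found in 31 mesothelial wells, Tgfbr3 at 295 CPM (254 to 340) and Tgfbr2 at 262 CPM (224 to 305), beside pooled fibroblast levels of 322 CPM for Tgfbr3 and 917 CPM for Tgfbr2. In pericyte wells Tgfbr3 was at 17.1 CPM and Tgfbr2 at 121 CPM. These pooled intervals cover counting error and not the spread between mice.

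**Figure D5:**
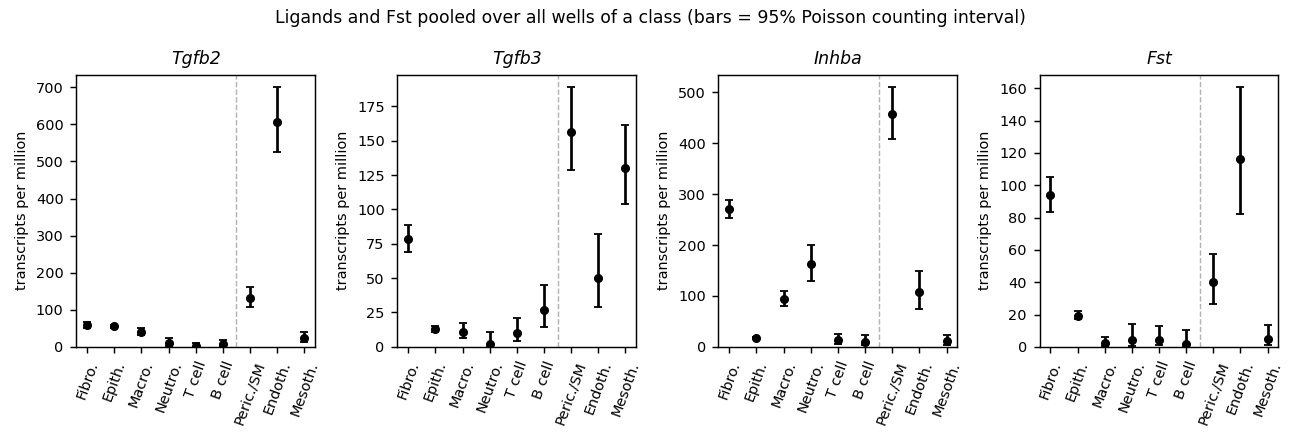
Pooled levels (y axis, CPM) of Tgfb2, Tgfb3, Inhba and Fst in 6 compared classes and, right of the dashed line, in 3 classes with few wells (x axis), with 95% Poisson intervals that cover counting error only. Tgfb2 in the 9 wells named endothelial and Inhba in wells named pericyte and smooth muscle lie above every compared class. Both names are uncertain.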

How the data were processed

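Single cells were sequenced by SORT-seq (CEL-Seq2) on 8 plates, 4 per genotype. The authors mapped reads to GRCm38, and deposited UMI counts per gene and well, corrected for UMI collisions, which are estimated counts (expected counts), as 86.3% of nonzero values were whole. BWA and Cell Ranger 2.1.1 are named in the submitters' processing notes. Sums per class and plate were rounded to whole numbers. No column of per-sample values was left unused (0 columns).

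Wells with at least 500 transcripts and mitochondrial shares within 3 MAD above the plate median were kept. A well took the class of the best of 13 marker lists (score of at least 0.25, lead of at least 0.25, at least 3 markers), a scoring rule set after the data were seen. No doublet caller was run, and 38 fibroblast wells with at least 2 Ptprc or Epcam transcripts were set apart. Of the classified wells, 146 lay near the limits of the rule. edgeR 4.0.16 (R 4.3.3, TMM, filterByExpr, quasi-likelihood test, Benjamini-Hochberg) was fitted on sums with at least 10 wells, with the plate as a block between classes and without a block between genotypes. DESeq2 1.42.0, library size alone, no filter, at least 1000 transcripts per well, Leiden clusters, other blocks and leaving out plates were tried as alternatives. The fits were tested on simulated data. The 9 genes and the lists were chosen with earlier results of these data known. Named pathway genes are the 3 of each list with the highest mean CPM over the classes. The genes alike are the 3 with the highest r. Some items that these rules pick are not reported here. Lrrc33, Smad7, Ltbp1, Tgif1, Eng and Cilp, singled out from the lists' calls, were chosen after their values were seen. Intervals and the depth of 981881 to 5905188 transcripts per plate bear on counting error only.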

Additional observations from a re-analysis of the deposited data

Results flagged for a closer look

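The 8 values below stood out because a class that no test used had a 95% Poisson interval above those of all 6 compared classes. Tgfb2 was at 607 CPM in the 9 wells named endothelial and at 132 CPM in the wells named pericyte and smooth muscle, both uncertain names. The highest upper bound of a compared class was 66.7 CPM. Tgfb3 was at 157 CPM in pericyte and smooth muscle wells, 130 CPM in mesothelial wells and 129 CPM in the 38 fibroblast wells that were set apart for Ptprc or Epcam transcripts, beside a bound of 88.7 CPM. Inhba was at 457 CPM in pericyte and smooth muscle wells and at 453 CPM in the fibroblast wells set apart, beside a bound of 289 CPM. Inhbb was at 135 CPM in the fibroblast wells set apart, beside a bound of 115 CPM. In the fibroblast wells set apart, 1 well held 402.06 of 720 Inhba transcripts and 72.63 of 214 Inhbb transcripts lay in 1 well, and the levels without these wells, 224 and 91.1 CPM, lay below the bounds. The other 6 values stayed above their bounds without their highest well, Tgfb2 at 458 and 116.7 CPM, Tgfb3 at 110.5, 110.1 and 114.6 CPM and Inhba at 385.5 CPM, with no new interval computed. The differences were not tested, and the wells set apart had a median of 37154 transcripts, against 11582 in the other fibroblast wells. No sample stood apart from its group in any of the 21 groups tested.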

How the results depend on the processing

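Class levels rested on few plates, above all in fibroblast wells (5 plates), and on marker classes, and sparse genes were limited by counts. Over the 15 class pairs the calls ranged from 51 to 62 without 1 plate. For contractile against matrix wells they ranged from 0 (without FibCtrl replicate 4) to 2. With no filter on low counts 1 member was called by genotype in fibroblast wells (Fst). For Inhbb, fibroblast minus epithelial, the call was lost with DESeq2 (1.15, adjusted p = 0.0923) and Leiden clusters (0.79, edgeR adjusted p = 0.0912), and for Inhba, fibroblast minus macrophage, with DESeq2 (2.05, adjusted p = 0.0671). The cause was not tested. All other class and genotype counts of members kept within 1.5 times the main count in every alternative run.

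Every value that changed sign was uncalled. By setting, these were Tgfb2, fibroblast minus epithelial, with library size alone (-0.10), and Tgfb2, epithelial minus macrophage, without the plate block (-0.046). Tgfb3, epithelial minus macrophage, was 0.18 with library size alone, 0.0036 with DESeq2 and 0.075 with Leiden clusters, and Tgfbr3 was 0.12 with library size alone and 0.011 with Leiden clusters. By genotype in fibroblast wells, Inhba was 0.34 with Leiden clusters, and Tgfb2 was -0.35 with at least 5 wells per plate, -0.093 with Ptprc or Epcam wells kept and -0.0012 in matrix wells alone. In macrophage wells Tgfbr1 was -0.00023 with library size alone, -0.044 with Leiden clusters, -0.035 with flow cell and -0.041 with the replicate block, and in T cell wells Tgfbr2 was 0.12 with flow cell and 0.43 with the replicate block.

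Without 1 plate, Tgfb2, Tgfb3 and Tgfbr3, epithelial minus macrophage, ranged from -0.069 to 0.65, -0.57 to 0.90 and -0.54 to 0.11. By genotype in fibroblast wells, Inhba, Tgfb2 and Tgfb3 ranged from -1.47 to 1.15, -0.23 to 0.67 and -0.32 to 1.78. In epithelial wells Fst, Tgfb2, Tgfb3, Tgfbr1 and Tgfbr2 ranged from -0.97 to 0.34, -0.35 to 0.41, -0.29 to 0.039, -0.18 to 0.070 and -0.48 to 0.055. In macrophage wells Tgfb2, Tgfbr1 and Tgfbr2 ranged from -1.12 to 1.01, -0.51 to 0.44 and -0.023 to 0.69, and in T cell wells Tgfbr2 from -0.56 to 0.049. Contractile minus matrix, Fst, Inhba, Inhbb and Tgfbr1 ranged from -0.31 to 0.14, -0.11 to 2.40, -1.78 to 0.29 and -0.68 to 0.16.

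Same-numbered FibCtrl and FibΔZeb1 plates correlated at 0.557, 0.301, 0.209 and 0.0685 in epithelial wells. FibCtrl replicates 1 to 3 correlated best with their own number and replicate 4 with FibΔZeb1 replicate 3, and same-numbered plates shared a flow cell. As 1 pair was not over 0.1, the numbers were not taken as a pairing, which the correlations leave unsettled. With the replicate block 0 members were called in each class, among those that passed the filter. Over all genes, edgeR called 24 in fibroblast wells and 13 in T cell wells with it, against 1 and 0 without, and 20 in fibroblast wells with flow cell. With no filter it called 298, 36, 18 and 18 genes in fibroblast, macrophage, neutrophil and T cell wells.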

Other observations

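The 437 wells that no marker list named held 564 Inhba transcripts, a pooled level of 247 CPM (95% Poisson interval 227 to 268, counting error only), beside 270 CPM in fibroblast wells, while Tgfbr2 was at 79.6 CPM and Tgfbr3 at 42.9 CPM in them.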
